A study of Mus musculus with 6 samples.

Results

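The CXC chemokine ligands examined here are 8 of the 23398 genes with a value in this series: Cxcl1, Cxcl2, Cxcl3, Cxcl5, Cxcl9, Cxcl10, Cxcl11 and Cxcl16. They were chosen by gene name, as the neutrophil-attracting and the interferon-inducible members of the family together with the membrane-bound Cxcl16. Their RNA was measured in mouse dendritic cells cultured from marrow and exposed for 12 hours to Ca(OH)2 (calcium hydroxide) nanoparticles or to vehicle, with 3 sequencing libraries in each group. Both groups were cultured in DMEM with serum and antibiotics, and no genetic change is named for either. The strain, sex and number of mice, the nanoparticle dose and the content of the vehicle were not given in the sources used here. Nothing in the labels says that the 3 libraries of a group came from separate cultures or mice, so the p-values measure the spread between these libraries, which may be technical. In such bulk RNA, fewer cells carrying a transcript and less transcript per cell cannot be told apart.

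CXC chemokines are small secreted proteins that guide leukocytes through G protein-coupled receptors. Cxcl1, Cxcl2, Cxcl3 and Cxcl5 act on Cxcr2 and draw neutrophils, and their genes are classic targets of NF-kappaB downstream of Toll-like receptors, Tnf and interleukin 1. Cxcl9, Cxcl10 and Cxcl11 act on Cxcr3 and draw activated T cells and natural killer cells, and their genes are induced by interferons. Cxcl16 is made as a transmembrane protein, can be shed by the proteases Adam10 and Adam17, and acts on Cxcr6. In dendritic cells, the release of these ligands is one way in which a maturing cell calls other leukocytes to it.

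Levels are given in FPKM, fragments per kilobase of gene length scaled to the library. One nanoparticle library, replicate 1, stood apart from replicates 2 and 3 across many genes: 35.4% of the 10682 tested genes had under 0.8 times, and 30.1% over 1.25 times, the mean of the other nanoparticle libraries. The change of each ligand is therefore also given without it, and so are the counts of the gene lists that it moves. Read totals recovered from the values were 17285836 to 21980799 per library, and 2.21% to 2.55% of reads came from mitochondrial genes. Itgax, which encodes the dendritic cell marker CD11c, was at 442 to 456 FPKM in vehicle and 248 to 398 FPKM with nanoparticles, and Flt3 was near 0 throughout (at most 0.0793 FPKM). Dendritic cell markers summed to 5396 to 5804 FPKM in vehicle and to 3066, 6298 and 6858 FPKM in nanoparticle replicates 1 to 3. Cd74 and H2-Ab1 made up most of each sum, so the sums mainly follow these genes. Of 8 dendritic cell markers tested, 3 were lower with nanoparticles (Cd209a, Clec10a and Zbtb46) and 0 higher, and Cd209a was at most at 0.0763 FPKM in the nanoparticle libraries. All 8 macrophage markers were also expressed, with summed levels of 982 to 1109 FPKM in vehicle and 962 to 1203 FPKM with nanoparticles. Of these 8, 3 were called higher (Adgre1, Fcgr1 and Cd68) and 3 lower, among them C1qa and C1qb, with a median log2 change of -0.12. The part of these shifts in the ligand levels was not tested.

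The sequence just before the start of these genes is shown because it can carry binding motifs of the factors named above. RefSeq starts on build GRCm38.p6 were found for 5 of the 8 genes, and the 250 bases before each start are written 5′ to 3′ on the strand of the gene. Capitals mark matches to the NF-kappaB consensus, to the interferon-stimulated response element (GAAA, 2 free bases, GAAA) and to the TATA box TATAAA, each searched on both strands. They lie at chr5:90890995-90891244 for Cxcl1, chr5:90903649-90903898 for Cxcl2 and chr5:90785851-90786100 for Cxcl3 on the plus strand, and at chr5:92328080-92328329 for Cxcl9 and chr5:92348890-92349139 for Cxcl10 on the minus strand.
Cxcl1: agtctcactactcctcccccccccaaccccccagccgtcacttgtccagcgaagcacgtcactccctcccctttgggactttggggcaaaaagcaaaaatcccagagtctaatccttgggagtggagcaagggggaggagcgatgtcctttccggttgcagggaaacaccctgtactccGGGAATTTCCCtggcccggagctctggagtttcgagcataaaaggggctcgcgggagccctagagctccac
Cxcl2: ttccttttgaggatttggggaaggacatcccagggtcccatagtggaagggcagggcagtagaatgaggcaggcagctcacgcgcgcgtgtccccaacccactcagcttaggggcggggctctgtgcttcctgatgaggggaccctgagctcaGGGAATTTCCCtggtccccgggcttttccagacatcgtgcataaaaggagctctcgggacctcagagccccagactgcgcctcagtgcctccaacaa
Cxcl3: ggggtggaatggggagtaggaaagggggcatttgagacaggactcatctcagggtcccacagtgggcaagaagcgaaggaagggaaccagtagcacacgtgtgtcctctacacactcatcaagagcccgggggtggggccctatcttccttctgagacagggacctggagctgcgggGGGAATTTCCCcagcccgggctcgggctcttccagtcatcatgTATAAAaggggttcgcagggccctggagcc
Cxcl10: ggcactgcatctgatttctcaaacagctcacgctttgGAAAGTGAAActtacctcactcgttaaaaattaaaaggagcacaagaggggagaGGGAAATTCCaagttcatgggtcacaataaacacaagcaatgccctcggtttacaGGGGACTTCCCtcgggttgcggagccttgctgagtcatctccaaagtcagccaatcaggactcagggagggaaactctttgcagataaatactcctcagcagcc
Cxcl9: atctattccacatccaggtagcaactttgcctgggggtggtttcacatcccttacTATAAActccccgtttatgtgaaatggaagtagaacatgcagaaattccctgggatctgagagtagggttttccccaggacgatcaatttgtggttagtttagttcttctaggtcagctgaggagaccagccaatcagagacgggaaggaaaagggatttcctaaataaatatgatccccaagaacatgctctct

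The same 10 bases, GGGAATTTCC, matched the NF-kappaB consensus in the 3 neutrophil-attracting genes, starting 71 bases before the start of Cxcl1, 97 before that of Cxcl2 and 73 before that of Cxcl3. In each of them a second match on the other strand overlapped the first, shifted by 1 base. The GENCODE gene of Cxcl2 starts at 90903871, inside the window of that gene, so its distance of 97 bases depends on the start used. Cxcl10 held GGGAAATTCC 159 bases before its start, the overlapping GGGGACTTCC and GGGACTTCCC from 104 and 103 bases before it, and the interferon element GAAAGTGAAA 213 bases before it. TATAAA was found 30 bases before the start of Cxcl3 and 195 bases before that of Cxcl9, and no match to the other motifs was found in the window of Cxcl9. Among 32851 RefSeq promoters of the same length, 7.25% held the NF-kappaB consensus, 2.98% the interferon element and 12.4% TATAAA. A match is a description of letters and not evidence of a bound factor.

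With nanoparticles the 4 neutrophil-attracting ligands were far above vehicle in all 3 libraries. Their genes lie together on the plus strand of chromosome 5 within 146579 bases (GENCODE M21, GRCm38), and each is protein coding. Differences were tested with limma on log2(FPKM + 1) over the 10682 genes that reached 1 FPKM in 3 or more libraries, and p-values were adjusted over all of them by Benjamini and Hochberg. Of the 8 ligands, 6 could be tested and all 6 were called higher at an adjusted p under 0.05. Calls were common: 33.2% of the tested genes were called, 17.0% higher with nanoparticles and 16.2% lower. Cxcl2, Cxcl3 and Cxcl16 reached 1 FPKM in all 6 libraries. Cxcl1, Cxcl5 and Cxcl10 passed the filter through the nanoparticle group alone, so a difference was built into their being tested, and Cxcl9 and Cxcl11 did not pass. The same limit holds for other genes named in this report. Il6, Nfkbiz, U90926, Ereg and Mthfd2l passed through the nanoparticle group alone, and Cd209a and Ppef2 through vehicle alone. All 8 ligands had groups that did not overlap, higher with nanoparticles, as did 25.9% of the tested genes, with 52.1% not overlapping in either direction.

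Cxcl2 (ENSMUSG00000058427, 90903871 to 90905938), also called MIP-2, had the highest mean FPKM of the 8 after treatment. Its level was 6.50, 6.81 and 7.02 FPKM in vehicle replicates 1 to 3, and 1163, 1930 and 1711 FPKM in nanoparticle replicates 1 to 3. The vehicle libraries lay within 1 FPKM of each other, and all nanoparticle libraries lay over 100 times above them, with replicate 1 lowest. The log2 change was 7.66 (SE 0.202, limma adjusted p = 1.4e-05), and 7.87 without nanoparticle replicate 1. This was the 5th largest of the 10682 fitted increases. Cxcl2 moved from rank 4797 to 5042 among all genes in vehicle to rank 42, 29 and 32 by FPKM in the nanoparticle libraries.

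Cxcl3 (ENSMUSG00000029379, 90786103 to 90789600) encodes a close relative of Cxcl2. It was at 11.8, 11.2 and 11.4 FPKM in vehicle and at 509.6, 1208 and 1244 FPKM with nanoparticles. Nanoparticle replicate 1 was well under the other nanoparticle libraries but still far above vehicle. The log2 change was 6.20 (SE 0.350, limma adjusted p = 1.2e-04), or 6.62 without that library. The coding transcripts of Cxcl2 and Cxcl3 share an identical run of 110 bases, so reads from it may fit both genes, and how such reads were counted was not given in the sources used here. Cxcl1 shared at most 23 bases in a row with either.

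Cxcl1 (ENSMUSG00000029380, 90891241 to 90893115), also called KC, had almost no reads in vehicle and many with nanoparticles. Its vehicle levels of 0.0535, 0.0269 and 0.128 FPKM rested on 2, 1 and 5 reads. With nanoparticles it stood at 57.0, 91.6 and 68.6 FPKM, from 1745, 2841 and 2478 reads. No vehicle library came near any nanoparticle library. The log2 change was 6.07 (SE 0.179, limma adjusted p = 2.1e-05), and 6.23 without nanoparticle replicate 1. On this scale the change of a gene near 0 is understated: the ratio of reads, scaled as the deposited values are, was 1027, with an exact 95% interval of 521 to 2379 that covers counting error only.

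Cxcl5 (ENSMUSG00000029371, 90759360 to 90761624), known in mouse as LIX, was the lowest of the 4 with nanoparticles. Vehicle libraries held 0.162, 0.352 and 0 FPKM from 6, 13 and 0 reads, and nanoparticle libraries held 9.93, 33.8 and 33.0 FPKM. Replicate 1 of the nanoparticle group was again the lowest, at 0.297 times the mean of the other nanoparticle libraries. Its log2 change of 4.34 (SE 0.457, limma adjusted p = 9.3e-04) had the widest error of the tested ligands and became 4.89 without that library. The ratio of reads was 155 (exact 95% interval 98.8 to 257).

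**Figure D1:**
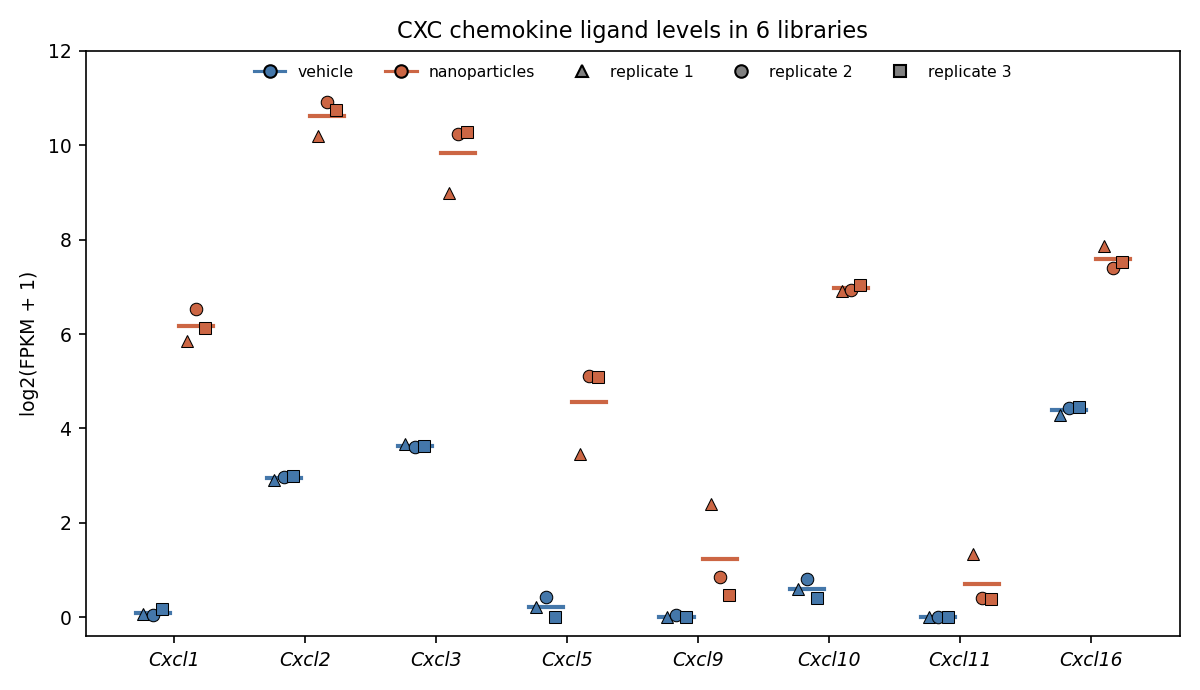
Level of each of the 8 ligands in the 6 libraries as log2(FPKM + 1), with vehicle in blue, nanoparticles in orange, a marker shape for each replicate number and a bar at the group mean (n = 3). The groups did not overlap for any of the 8, and nanoparticle replicate 1 was the lowest of its group for Cxcl1, Cxcl2, Cxcl3 and Cxcl5 and the highest for Cxcl9, Cxcl11 and Cxcl16.

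Among the interferon-inducible ligands, Cxcl10 was abundant with nanoparticles while Cxcl9 and Cxcl11 stayed low. The 3 genes lie on the minus strand of chromosome 5 within 44139 bases. Cxcl10 (ENSMUSG00000034855, 92346638 to 92348889), also called IP-10, was at 0.513, 0.762 and 0.319 FPKM in vehicle and at 119.9, 121 and 131 FPKM with nanoparticles. It was the one ligand of the 8 whose nanoparticle libraries nearly coincided, with replicate 1 at 0.951 times the mean of the others. The log2 change was 6.36 (SE 0.131, limma adjusted p = 5.8e-06), and 6.38 without nanoparticle replicate 1. Recovered reads went from 23, 34 and 15 to 4410, 4514 and 5684, a scaled ratio of 236 (exact 95% interval 187 to 302). The gene Art3 overlaps Cxcl10 on the other strand, but its own level was at most 0.0312 FPKM in any library.

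Cxcl9 (ENSMUSG00000029417, 92321347 to 92328079), also called MIG, was at 0, 0.0335 and 0 FPKM in vehicle, from 0, 2 and 0 reads. With nanoparticles it was at 4.26, 0.801 and 0.396 FPKM, from 210, 40 and 23 reads. All nanoparticle libraries were above vehicle, but replicate 1 held most of the reads, at 7.12 times the mean of the other nanoparticle libraries. Over the group the scaled ratio of reads was 159, with an exact 95% interval of 43.5 to 1317. Replicate 1 supplied 76.9% of the nanoparticle reads, and without it the ratio was 53.3 (exact 95% interval 14.2 to 450). Fitted without the filter on low values, its log2 change of 1.23 (SE 0.496) had a limma adjusted p = 0.19.

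Cxcl11 (ENSMUSG00000060183, 92359544 to 92365485), also called I-TAC, is annotated as a polymorphic pseudogene in GENCODE, so whether these transcripts can yield protein was not tested. It had 0 reads in each vehicle library. Nanoparticle libraries held 1.52, 0.334 and 0.301 FPKM, from 94, 21 and 22 reads, with replicate 1 at 4.78 times the mean of the others. Against a floor of 3 reads over the whole vehicle group, Cxcl11 was at least 53.1-fold higher. Replicate 1 supplied 68.6% of the nanoparticle reads, and without it the bound was 24.3-fold. Without the filter its log2 change of 0.71 (SE 0.264) had a limma adjusted p = 0.16. Art3 and the pseudogene Gm2673 overlap Cxcl11 on the other strand. Gm2673 was not analysed here.

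Cxcl16 (ENSMUSG00000018920) lies apart from the others, on chromosome 11 (minus strand, 70453983 to 70459984). It was already expressed in vehicle, at 18.5, 20.7 and 21.1 FPKM, and reached 230.5, 169 and 183 FPKM with nanoparticles. Here replicate 1 was the highest of its group, at 1.31 times the mean of the other nanoparticle libraries. Its log2 change of 3.20 (SE 0.148, limma adjusted p = 7.1e-05) was the smallest among the tested ligands and 3.07 without that library. Zmynd15 overlaps the 5′ end of Cxcl16 on the other strand and was at 0.315 to 0.524 FPKM in vehicle and at 2.48 to 6.61 FPKM with nanoparticles. Whether the counting used strand was not given in the sources used here, so reads of such overlapping genes cannot be told apart.

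The order of the ligands changed with treatment. In vehicle, Cxcl16 was highest, then Cxcl3 and Cxcl2, with ranges that did not overlap. From Cxcl10 down, through Cxcl5, Cxcl1, Cxcl9 and Cxcl11, the ranges of neighbours in the order overlapped. With nanoparticles the order by mean was Cxcl2, Cxcl3, Cxcl16, Cxcl10, Cxcl1, Cxcl5, Cxcl9 and Cxcl11. Here, by the deposited FPKM, the ranges of Cxcl2 and Cxcl3 overlapped, as did those of Cxcl9 and Cxcl11, and all other neighbours were separated. Some of these orders rest on the gene length, as given below.

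Summed over the 8 ligands, the level was 37.5, 39.9 and 39.9 FPKM in vehicle and 2096, 3555 and 3372 FPKM with nanoparticles. As a share of all recovered reads this was 0.0126% to 0.0136% in vehicle and 0.486%, 0.828% and 0.783% in nanoparticle replicates 1 to 3. In vehicle, Cxcl16 made up 51.3% ± 1.78 of the summed FPKM, Cxcl3 29.3% ± 1.75 and Cxcl2 17.3% ± 0.269 (SD, n = 3 each). With nanoparticles, Cxcl2 made up 53.5% ± 2.47, Cxcl3 31.7% ± 6.59, Cxcl16 7.06% ± 3.43, Cxcl10 4.34% ± 1.22, Cxcl1 2.44% ± 0.362 and Cxcl5 0.801% ± 0.283 (SD, n = 3 each). Without nanoparticle replicate 1, Cxcl2 made up 52.5% and Cxcl3 35.4%.

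The balance of Cxcl2 and Cxcl3 rests on the gene length. The deposited FPKM divide by the merged length of all annotated exons, 3498 bases for Cxcl3, whose coding transcript has 1016 bases, and 2068 bases for Cxcl2, whose coding transcripts have 1109 and 1859 bases. Per length of the shortest coding transcript, Cxcl3 made up 46.9% ± 7.46 and Cxcl2 43.2% ± 4.16 with nanoparticles, and per length of the longest, 57.2% ± 7.88 and 31.6% ± 3.78 (SD, n = 3 each). By the shortest, Cxcl2 still led in replicate 1, with 47.6% against 38.5%, and Cxcl3 led in replicates 2 and 3. In vehicle, Cxcl3 then led with 51.9%, ahead of Cxcl16 with 29.6% and Cxcl2 with 16.6%, by the shortest coding transcript. The share of Cxcl16 was lower with nanoparticles by each length. Its order with Cxcl10 in the nanoparticle group also rests on the length. Per shortest coding transcript, Cxcl10 made up 3.90% and Cxcl16 3.47% on average, and per longest 3.87% and 4.28%. By both of these lengths, Cxcl16 led in replicate 1 and Cxcl10 in replicates 2 and 3.

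**Figure D2:**
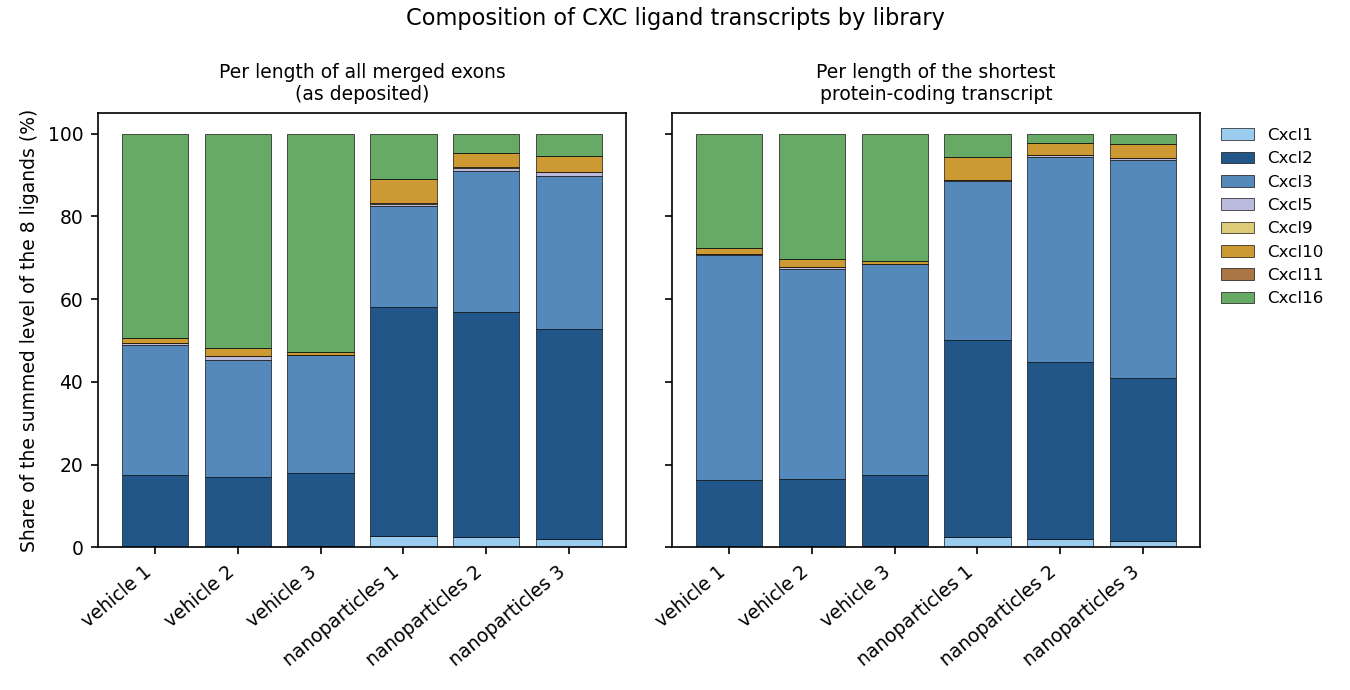
Share of each ligand in the summed level of the 8 ligands, in percent, 1 stacked bar for each library, with levels per length of all merged exons (left) and per length of the shortest protein-coding transcript (right). Cxcl16 takes 51.3% on average in vehicle and 7.06% with nanoparticles on the left. The order of Cxcl2 and Cxcl3 differs between the panels in nanoparticle replicates 2 and 3 but not in replicate 1.

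The nanoparticle libraries did not differ from each other in the same way for all ligands. Relative to the mean of replicates 2 and 3, replicate 1 held 0.712 times the level of Cxcl1, 0.639 times that of Cxcl2, 0.416 times that of Cxcl3 and 0.297 times that of Cxcl5. For Cxcl9, Cxcl11 and Cxcl16 it held 7.12, 4.78 and 1.31 times that mean. So the Cxcr2 ligands were lower in this library, and Cxcl16 and the low-expressed Cxcl9 and Cxcl11 were higher. Over all tested genes the median of the same ratio was 0.969, and over the genes called higher it was 1.10, with 18.0% of those under 0.8 and 37.1% over 1.25. Irf7, an interferon regulatory factor, was at 366 FPKM in replicate 1 against 106 and 124 FPKM in the others. The part of this library's other differences in these values was not tested.

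**Figure D3:**
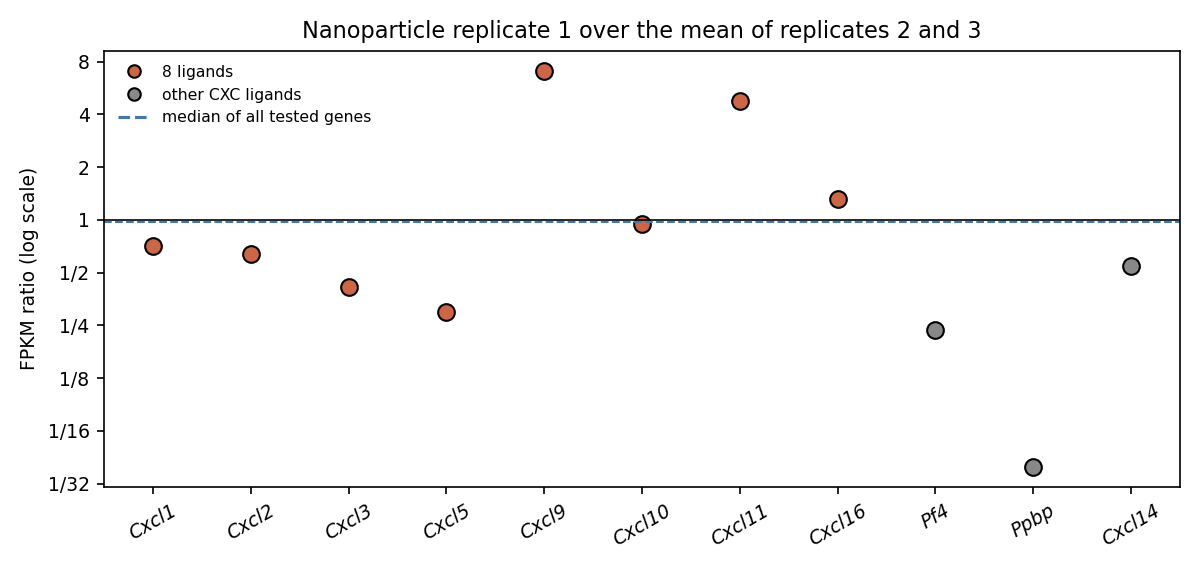
Level in nanoparticle replicate 1 divided by the mean of nanoparticle replicates 2 and 3, on a log axis, for the 8 ligands (orange) and 3 other CXC ligands (grey), with the median of all tested genes as a dashed line at 0.969. Values run from 0.0388 for Ppbp to 7.12 for Cxcl9.

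Of the 8 ligands, the 4 Cxcr2 ligands had the 3′ untranslated regions densest in AU-rich elements, with Cxcl5 below the other 3. These elements, built from the pentamer ATTTA in the DNA sequence, are known to bind factors that shorten the life of cytokine mRNAs. The 3′ untranslated region of Cxcl1 held 7 such pentamers in 592 bases, or 11.8 per kilobase, that of Cxcl3 held 5 in 645 bases (7.75) and that of Cxcl2 held 11 in 1494 bases (7.36). Densities were lower in Cxcl5 (4.50), Cxcl10 (3.01), Cxcl16 (1.41), Cxcl9 (1.22) and Cxcl11 (0.821). The median over 9689 tested genes was 1.33. As many or more per kilobase were found in 0.599% of those genes for Cxcl1, 1.82% for Cxcl3, 2.24% for Cxcl2 and 8.03% for Cxcl5. The longer element TTATTTATT occurred 2 times in Cxcl1, 4 times in Cxcl2 and 1 time in Cxcl3, in none of the other ligands, and in 7.96% of the tested genes. The densest 30 bases of Cxcl1 and Cxcl2 are shown with the pentamers in capitals, from the GENCODE M21 transcripts.
Cxcl1: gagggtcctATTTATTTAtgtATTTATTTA
Cxcl2: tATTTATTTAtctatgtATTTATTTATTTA

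Genes around these ligands in their pathway were examined in 7 lists with 71 genes, of which 67 had values and 54 could be tested. Of these 54, 32 were higher and 8 lower with nanoparticles, beside 17.0% higher and 16.2% lower among all tested genes. Without nanoparticle replicate 1, all 40 kept their call, and 39 were higher and 10 lower. In that fit, 3660 of all 10682 tested genes were called higher and 3263 lower, so calls were more common throughout. Over all tested genes the median was -0.00 on the log2 scale, so the deposited scale is centred on no change.

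No other CXC ligand was called. Of 7 listed, 6 had values and 3 could be tested, of which 1 reached an unadjusted p under 0.05. Pf4 (CXCL4), a ligand stored in platelets and also made by myeloid cells, was at 191, 214 and 199.9 FPKM in vehicle and at 140.2, 547 and 641 FPKM with nanoparticles. Ppbp (CXCL7), its neighbour on chromosome 5, was at 27.3, 30.9 and 34.8 FPKM in vehicle and at 2.26, 61.3 and 55.2 FPKM with nanoparticles. For both, replicate 1 lay below all vehicle libraries while replicates 2 and 3 lay above them. The log2 changes were 0.86 for Pf4 (limma adjusted p = 0.29) and -0.50 for Ppbp (adjusted p = 0.77). Without replicate 1 they were 1.55 (adjusted p = 1.8e-05) and 0.89 (adjusted p = 4.8e-04), in a fit that called 6923 of all 10682 tested genes. Cxcl14, expressed by many resting tissues, was at 15.9, 11.2 and 10.3 FPKM in vehicle and at 4.53, 8.34 and 8.18 FPKM with nanoparticles (log2 change -0.77, SE 0.256, limma adjusted p = 0.063). Groups did not overlap for Cxcl14, and it was called lower without replicate 1 (-0.52, adjusted p = 0.032) and when libraries were scaled to equal sums of FPKM (-1.19, adjusted p = 0.0048), to equal distributions (-0.88, adjusted p = 0.038) or by read totals (-1.08, adjusted p = 0.013). Cxcl12, Cxcl13 and Cxcl15 were at most at 0.0852 FPKM in any library.

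Receptors for these ligands were low in the dendritic cells themselves, and 1 of 8 could be tested. Cxcr4, the receptor of Cxcl12, was at 6.61, 7.17 and 7.50 FPKM in vehicle and at 5.11, 3.88 and 2.93 FPKM with nanoparticles, with no overlap. It fell by 0.72 on the log2 scale (SE 0.172, limma adjusted p = 0.020), a call that was lost on leaving out any 1 vehicle library or nanoparticle replicate 2 (adjusted p = 0.060 to 0.082). Cxcr3, the receptor of Cxcl9, Cxcl10 and Cxcl11, was at 0.0580 to 0.0830 FPKM in vehicle and at 1.63, 0.279 and 0.330 FPKM with nanoparticles. Cxcr6, the receptor of Cxcl16, was at 0 to 0.0780 FPKM and at 0.951, 0.125 and 0.107 FPKM. In both, replicate 1 was the highest of the nanoparticle libraries, as for Cxcl9, Cxcl11 and Cxcl16. Cxcr2 was at 0.395 to 0.801 FPKM in vehicle and at 0.0201, 0.139 and 0 FPKM with nanoparticles. Cxcr1, Cxcr5, Ackr1 and Ackr3 were at most at 0.129 FPKM.

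Proteases and enzymes that shed or trim CXC ligands moved both ways: of 9 listed, 7 could be tested, 2 of them higher and 3 lower, with a median log2 change of 0.02. Without nanoparticle replicate 1, 4 were higher and 3 lower, in a fit that called 6923 of all 10682 tested genes. Mmp14, a membrane-bound matrix metalloproteinase, went up from 36.3 ± 0.219 FPKM to 133 ± 14.9 FPKM, a log2 change of 1.83 (limma adjusted p = 1.9e-04; here and below, ± is the SD of 3 libraries). The sheddases that act on Cxcl16 moved apart. Adam10 fell from 30.2 ± 1.52 to 14.0 ± 1.50 FPKM (log2 change -1.06, adjusted p = 9.8e-04), and Adam17 rose from 18.4 ± 0.704 to 31.6 ± 6.52 FPKM (0.73, adjusted p = 0.018). The call of Adam17 was lost in 6 of 17 alternatives, among them equal sums of FPKM (0.28, adjusted p = 0.096) and read totals (0.40, adjusted p = 0.083). Mmp8, a neutrophil collagenase that can cleave Cxcl5, fell from 245 ± 14.5 to 130 ± 2.28 FPKM (-0.90, adjusted p = 0.0017). Padi2, a deiminase that can modify arginines of chemokines, fell by 0.75 on the log2 scale (adjusted p = 0.017), a call lost on leaving out any 1 vehicle library (adjusted p = 0.063 to 0.069). Mmp9 was at 9.41 to 10.1 FPKM in vehicle and at 9.33, 39.5 and 34.5 FPKM with nanoparticles (log2 change 1.21, adjusted p = 0.12), and without replicate 1 at a log2 change of 1.83 (adjusted p = 6.0e-06).

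Cytokines that induce CXC ligands were among the most increased transcripts. Of 16 listed cytokines and receptors, 13 had values and 12 could be tested, with 9 higher, 2 lower and a median log2 change of 1.08. Il1b rose from 8.10 ± 0.646 to 2787 ± 95.5 FPKM (log2 change 8.26, adjusted p = 2.0e-06), and Il1a from 11.8 ± 0.468 to 2121 ± 1138 FPKM (7.24, adjusted p = 8.1e-05; 6.84 without nanoparticle replicate 1). Il6 was at 0, 0 and 0.0592 FPKM in vehicle and at 383, 290 and 264 FPKM with nanoparticles (8.25, adjusted p = 5.8e-06). Tnf went from 47.6 ± 1.04 to 1100.5 ± 151 FPKM (4.49, adjusted p = 2.4e-05). Of the receptors that fell, Ifngr1, a chain of the interferon gamma receptor, went from 23.2 ± 1.11 to 12.8 ± 1.84 FPKM (-0.81, adjusted p = 0.0039). Il1r1, the signalling receptor of interleukin 1, went from 1.71 ± 0.0866 to 1.06 ± 0.177 FPKM (-0.40, adjusted p = 0.029), a call that was lost in 8 of 16 alternatives. The call of Il17ra as higher was lost in 10 of 17 alternatives, and its sign turned with equal sums of FPKM (0.39 to -0.04). Ifnb1, which encodes interferon beta, was below the filter, at 0.335, 0 and 0 FPKM in vehicle and 0.653, 3.46 and 3.67 FPKM with nanoparticles. Il17a, Il17f and Ifng were not analysed here.

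All 11 NF-kappaB factors and inhibitors were higher, with a median log2 change of 2.03. The largest change was that of Nfkbiz, the nuclear IkappaB-zeta (0.453 ± 0.0324 to 25.1 ± 6.60 FPKM, log2 change 4.14, limma adjusted p = 7.1e-05). It was followed by Nfkbia, the inhibitor IkappaB-alpha (3.21), Nfkb2, which encodes p100 (2.70), and Tnfaip3, the deubiquitinase A20 (2.64), and the smallest was that of Rela, the p65 subunit (1.03). These 11 calls were kept in all 17 alternatives, though Nfkbiz passed the filter through the nanoparticle group alone.

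Of 10 interferon signalling factors, 7 were higher, 0 lower, with a median log2 change of 1.37. Irf7 rose from 1.98 ± 0.111 to 198.5 ± 145 FPKM (log2 change 5.83, limma adjusted p = 3.3e-04), and its mean was 115 FPKM without nanoparticle replicate 1 (log2 change 5.28). Irf1 (2.46) and Stat2 (2.02) were also higher. Jak1, Tyk2 and Irf3 were not called (log2 changes 0.19, 0.13 and 0.10). Among 10 factors that act on the stability of AU-rich mRNAs, 3 were higher and 2 lower, with a median log2 change of 0.25. Without nanoparticle replicate 1, 6 were higher and 3 lower, where 6923 of all 10682 tested genes were called. Zc3h12a, the endonuclease Regnase-1, rose from 9.63 ± 1.07 to 81.7 ± 11.9 FPKM (2.95, adjusted p = 8.4e-05), and its relative Zc3h12c rose by 1.62 on the log2 scale (adjusted p = 4.1e-04). Zfp36, which encodes tristetraprolin, rose by 0.78 (adjusted p = 0.019), a call lost in 6 of 17 alternatives. Zfp36l2 fell from 149 ± 4.08 to 78.5 ± 0.381 FPKM (-0.91, adjusted p = 0.0011). Khsrp fell by 0.59 (adjusted p = 0.015), a call lost on leaving out any 1 vehicle library (adjusted p = 0.063 to 0.069).

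**Figure D4:**
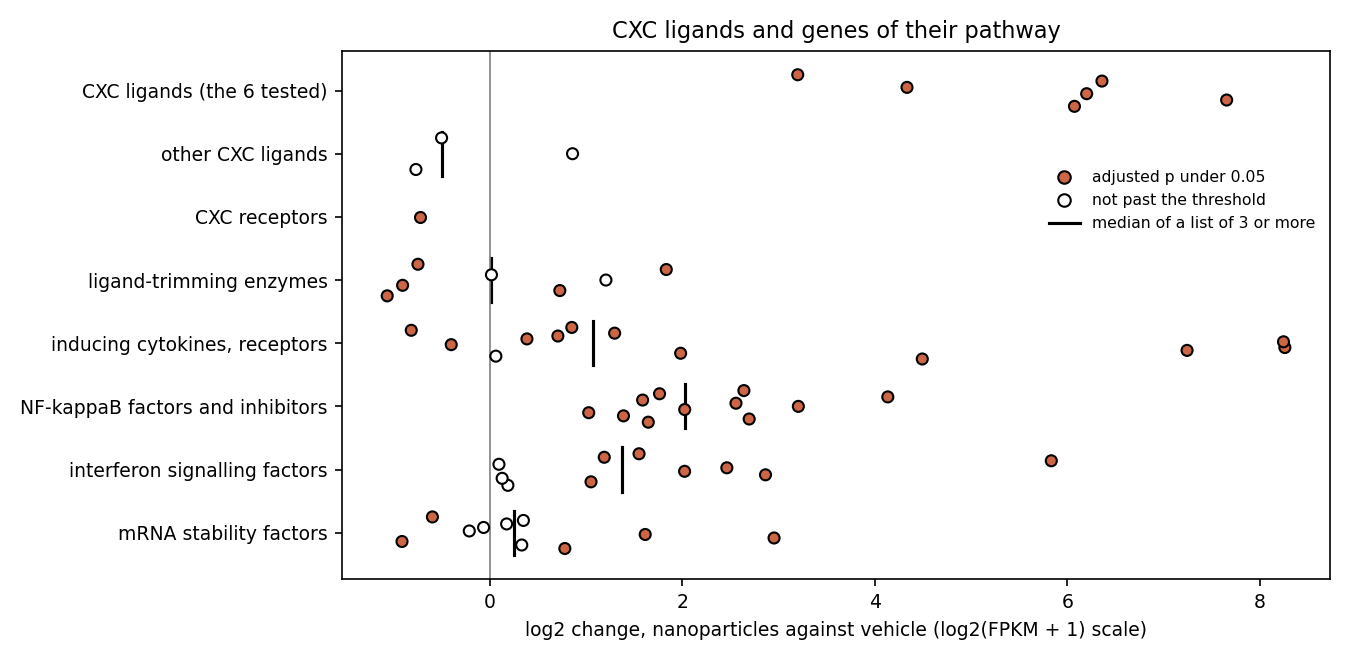
Log2 change with nanoparticles against vehicle on the log2(FPKM + 1) scale for the 6 tested ligands and the tested genes of the 7 pathway lists, 1 point for each gene, filled where the adjusted p was under 0.05, with a vertical bar at the median of each list of 3 or more genes. The 6 ligands lie between 3.20 and 7.66, and the 11 NF-kappaB genes between 1.03 and 4.14.

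For each tested ligand, the 2 genes with the most similar profile were sought among 6659 genes with a mean of at least 5 FPKM in either group, by Euclidean distance over the 6 libraries of log2(FPKM + 1) centred on the vehicle mean. Cxcl3 was closest to Saa3, an acute-phase serum amyloid (distance 0.549), which was also closest to Cxcl1 (0.995). Saa3 was at 2.67 to 3.49 FPKM in vehicle and at 125.2, 323 and 387 FPKM with nanoparticles, with the low replicate 1 seen in Cxcl3. Cxcl16 had the nearest companions of all, Cd14, a coreceptor for lipopolysaccharide (0.215), and Nfkbia (0.245). Cxcl2 was closest to Il1b (1.20) and Isg15 (1.27), and Cxcl5 to Apol7c (0.883) and Tnf (1.20). Cxcl10 was closest to U90926 (0.902) and Clec4e, the C-type lectin Mincle (1.05). U90926 was also the second nearest of Cxcl1 (1.01) and Cxcl3 (1.65). The measure is a description over 6 libraries and mostly reflects the size of the change.

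Markers of other cell types were also summed by library. The summed levels of lymphocyte markers were at most 0.478 FPKM, of mast cell and basophil markers at most 1.65 FPKM and of stromal and endothelial markers at most 0.994 FPKM in any library. The 11 neutrophil markers summed to 35.8 to 40.3 FPKM in vehicle and to 56.0, 114 and 128 FPKM with nanoparticles. Of the 3 that could be tested, S100a8 (log2 change 1.16, limma adjusted p = 0.022) and Csf3r (1.71, adjusted p = 2.3e-04) were higher. S100a9 was at 0.962 to 1.65 FPKM in vehicle and at 0.352, 13.2 and 10.2 FPKM with nanoparticles, Ngp at 0.246 to 0.901 and at 0.0501, 4.30 and 3.23 FPKM, and Camp at 0 to 0.190 and at 0.242, 1.83 and 1.99 FPKM. These 3 granule and calcium-binding protein genes were thus highest in nanoparticle replicates 2 and 3. Cxcr2, also on this list, went the other way, at 0.395 to 0.801 FPKM in vehicle and at 0.0201, 0.139 and 0 FPKM with nanoparticles. Ly6g, the defining surface marker of mouse neutrophils, was at most at 0.192 FPKM in any library, and Mpo, Elane and Retnlg were at 0 in all vehicle libraries and at most at 0.307 FPKM with nanoparticles. The part of these markers in the ligand levels was not tested.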

How the data were processed

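RNA of 3 vehicle and 3 nanoparticle samples of mouse bone marrow-derived dendritic cells was sequenced from NEBNext Ultra II libraries, each from 1 µg of total RNA, per the labels' protocols. CASAVA, STAR 2.5, HTSeq, edgeR 3.16.5, DESeq2 and the builds hg19 and mm10 are listed in the submitters' processing notes, with no role given. The authors deposited 1 value per gene and library, taken here as FPKM because of how the values behave, since no header names the unit. A further table held the same 140388 of 140388 values and was not used. Multiplied by merged exon lengths of GENCODE M21 and 1 scale per library, 95.8% to 96.1% of the values above 0 became whole reads (within 0.01). A length giving whole reads was found for 805 of the 841 genes for which the annotated one did not do so in all libraries. The scales show that the deposited FPKM carry a scaling between libraries: recovered reads per unit of scale, relative to their mean, were 0.875 to 0.892 in vehicle and 1.09 to 1.14 with nanoparticles. That scaling hides any shift shared by most genes. IDs of 23388 genes matched GENCODE M21, and 10 did not.

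The 10682 genes that reached 1 FPKM in 3 or more libraries were compared with limma 3.58.1 in R 4.3.3 (lmFit, then eBayes with trend) on log2(FPKM + 1), with group as the single term, all 6 libraries, and Benjamini-Hochberg adjustment over all genes at 0.05. The script was tested on simulated data. FPKM are not counts, so the design's count test was not used. Intervals of read ratios are exact binomial and cover counting error only. Named were all 8 ligands, all other CXC ligands and receptors, up to 4 called genes of each list with the largest change plus those against the list's majority, the 2 nearest profiles for each tested ligand, and called genes within 200 kb of both clusters. Genes of the lists outside this rule that are named (Mmp9, Ifnb1, Il17ra, Irf3, Jak1, Tyk2, Rela, markers) were chosen after their values were seen. Some genes that the rule names are not reported here. The ligands and lists were chosen with earlier results of these data known. Replicate numbers were not taken as pairs. Python 3.11.15 with pandas 2.3.3, scipy 1.17.1 and matplotlib 3.10.9 was used for the rest. Protein sequences were not used here.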

Additional observations from a re-analysis of the deposited data

How the results depend on the processing

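All 6 tested ligands kept their direction and their call in each of 17 alternatives: pseudocounts of 0.1 and 5, no filter or a filter of 5 FPKM, equal sums of FPKM, quantile normalization, no trend, robust moderation, a replicate block, limma-voom on the recovered reads, scaling by recovered read totals, and each library left out in turn. Scaling by read totals, the coding transcript lengths and the read ratios without nanoparticle replicate 1 were chosen after seeing the data. Without 1 library, the log2 changes ranged from 5.89 to 6.23 for Cxcl1, 7.50 to 7.87 for Cxcl2, 5.98 to 6.62 for Cxcl3, 4.05 to 4.89 for Cxcl5, 6.26 to 6.47 for Cxcl10 and 3.07 to 3.29 for Cxcl16. Under the other alternatives they ranged from 3.91 to 9.89 for Cxcl1, 2.44 to 7.89 for Cxcl5 and 4.54 to 7.90 for Cxcl10, which are near 0 in vehicle, from 7.06 to 7.83 for Cxcl2, 5.75 to 6.31 for Cxcl3 and 2.74 to 3.26 for Cxcl16. The largest adjusted p of any ligand under any alternative was 0.021, for Cxcl5. With the share of summed levels per coding length, Cxcl2 with nanoparticles moved from 53.5% to 43.2% (shortest) and 31.6% (longest) and Cxcl3 from 31.7% to 46.9% and 57.2%.

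Over all genes, 3550 were called, and 2141 to 6923 with 1 library left out: leaving out vehicle replicate 1, 2 or 3 gave 2226, 2188 and 2141, and leaving out nanoparticle replicate 1 gave 6923. Equal sums of FPKM called 881 higher and 4307 lower, with a median log2 change of all genes of -0.38, read totals 1108 and 3613 (median -0.28) and quantile normalization 1641 and 2203, in place of 1817 and 1733. Of the 40 pathway genes called, 31 were called in every alternative, 0 were called in the opposite direction, and the sign of 1, Il17ra, turned. Deviations of same-numbered libraries from their group means had correlations of 0.07, 0.11 and -0.06, and those of differently numbered libraries -0.13 to 0.11. With 3 libraries in each group, these values cannot show whether the libraries were paired. The numbers were not taken as pairs. With the replicate block 2785 genes were called, among them the same 6 ligands. Cxcl9 and Cxcl11 had too few reads, at most 2 in any vehicle library, for their changes to be sized closely.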

Other observations

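The genes around the ligand clusters were counted within 200 kb of the outermost ligands on chromosome 5 (GENCODE M21, GRCm38). Around Cxcl1, Cxcl2, Cxcl3 and Cxcl5, 17 other genes were annotated, 7 had values and 4 were tested, of which 2 were higher with nanoparticles and 0 lower. Ereg, which encodes the growth factor epiregulin, went from 0.0242 ± 0.0324 to 3.67 ± 2.28 FPKM (SD, n = 3), with limma's adjusted p = 0.0083 and 2.05 on the log2 scale. The change of Mthfd2l, a mitochondrial folate enzyme, was small (0.49, adjusted p = 0.021), and its call was lost in 8 of 16 alternatives. The chemokine genes Pf4 and Ppbp lie inside this cluster, between Cxcl5 and Cxcl3, and were not called.

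Around Cxcl9, Cxcl10 and Cxcl11, 17 other genes were annotated, 12 had values and 8 were tested, with 3 higher and 3 lower. U90926, a transcript of little known function that lies at 92209893 to 92215408 on the same strand as these ligands, was at 0, 0.0631 and 0 FPKM in vehicle and at 92.1, 57.9 and 53.5 FPKM with nanoparticles (log2 change 6.03, SE 0.210, limma adjusted p = 3.2e-05). On this scale, which understates the change of genes near 0, it came close to Cxcl10 (6.36). Cxcl9, which lies between them, stayed at or below 4.26 FPKM. Its scaled ratio of reads was still 159, and 53.3 without nanoparticle replicate 1. Naaa, a lysosomal amidase gene separated from Cxcl9 by Sdad1, went from 99.4 ± 2.34 to 31.9 ± 16.5 FPKM (SD, n = 3; log2 change -1.78, adjusted p = 0.022), a call that was lost in 4 of 17 alternatives. Sdad1 (-0.57, adjusted p = 0.0041) and Ppef2 (-0.75, adjusted p = 0.0039) fell in every alternative in which they were tested. Scarb2 (0.47, adjusted p = 0.011) and Nup54 (0.40, adjusted p = 0.041) were called higher, and lost the call in 7 and 10 of 17 alternatives. Of the tested genes as a whole, 33.2% were called in either direction.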
